A study of Mus musculus with 12 samples.

Results

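The genes described here encode the aminoacyl-tRNA synthetases, the enzymes that load each transfer RNA with its amino acid. The list held 36 gene symbols, 20 for the cytosolic enzymes and 16 for the mitochondrial ones, and all 36 were found among the 46095 genes of the table. The list was selected on a measured value, the p of Gars (glycyl-tRNA synthetase), which stood at rank 9 among 14666 genes compared between the genotypes. All 36 passed the filter on low counts. The comparison of genotypes was therefore used in choosing the list, and its values are given below as a description. Where calls of members in that comparison are printed, nothing is read from them.

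Cytosol and mitochondria each translate messages, and most amino acids have a separate synthetase gene for each compartment, the mitochondrial one carrying the suffix 2. Gars and Kars are exceptions, since each makes both a cytosolic and a mitochondrial enzyme from 1 gene. Several cytosolic synthetases sit together in a multi-enzyme complex, and many of their genes belong to the programme that the transcription factor ATF4 drives when amino acids run short. The mitochondrial enzymes serve the translation of the few proteins that the mitochondrial genome encodes.

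RNA sequencing counts came from liver tumours (hepatocellular carcinoma) that the carcinogen diethylnitrosamine, an agent that hepatocytes convert to a DNA-alkylating form, had induced in mice. The mice were Pck1-null (KO, 7 libraries) or wild type (WT, 5 libraries). The product of Pck1 is an enzyme of gluconeogenesis, cytosolic phosphoenolpyruvate carboxykinase. All 12 libraries came from carcinogen-treated liver, so both groups share that treatment, and no untreated liver was analysed here. The labels state neither the age, sex or strain of the mice nor the time of treatment, how the Pck1 allele was made, or whether any cell types kept the gene, and they do not say that each library came from a separate animal. The p-values over all genes therefore measure only the spread between these libraries.

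Total counts were 17462102 to 23663506 in 7 libraries (4 KO and 3 WT, the shallower libraries) and 43071365 to 46747125 in 5 (3 KO and 2 WT, the deeper libraries). Pck1 was at 111 to 1167 CPM (the usual library-size-scaled unit of read counts, with TMM factors) in KO and at 1063 to 5822 CPM in WT, so that KO replicate 3 lay above WT replicate 4. The 12 hepatocyte markers summed to 100164 to 228745 CPM in KO and 91942 to 288731 in WT, and 10 had negative values. Alb was at 31612 to 140779 CPM over all libraries. Cps1 varied more widely, at 25.7 to 2612 CPM in KO and 507 to 2833 in WT. Xist was above 10 CPM in 6 libraries, which were WT replicate 4 and all of KO but replicates 4 and 7. The Xist class was thus unevenly split between the genotypes. The 10 neutrophil markers summed to 34.6 to 1659 CPM in KO and 29.9 to 57.8 in WT, and all 10 had positive fitted values, with the highest sums in KO replicates 3, 6 and 4. The 8 endothelial markers summed to 130 to 664 CPM in KO and 359 to 585 in WT, and 7 had negative values. The 8 macrophage markers summed to 151 to 1881 CPM in KO and 380 to 1132 in WT, and 5 had negative values. In the macrophage list the Kupffer cell lectin Clec4f was at 1.02 to 112 CPM in KO and 50.2 to 265 in WT. The members did not share a direction, and Marco, with a positive value, was at 0.323 to 294 CPM in KO and 0.429 to 22.5 in WT. The highest macrophage sum, 1881 CPM, was in KO replicate 6. The 12 proliferation markers summed to 75.9 to 201 CPM in KO and 52.8 to 126 in WT, and all 12 had positive values. Of 8 stellate and fibroblast markers 7 had negative values, and all 7 fitted T and NK cell markers had positive ones. Erythroid markers summed to 21.7 to 1176 CPM in KO and 115 to 607 in WT. None of these markers was at 0 in all libraries, and their part in the values below was not tested. In bulk tissue, fewer cells of a type and less RNA per cell cannot be told apart. The markers of exocrine pancreas summed to at most 1.67 CPM, and Cpb1, Pnlip and Cel were at 0 throughout.

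Glycyl-tRNA synthetase stood apart from the other members. Gars (ENSMUSG00000029777.10) lies on chromosome 6 from 55038007 to 55079500 on the plus strand (GRCm38), and its exons overlap no other annotated gene. Its level in KO replicates 1 to 7 was 232, 178, 263, 191, 153, 87.4 and 181 CPM. In WT replicates 1 to 5 it was 101, 65.6, 53.7, 65.0 and 67.4 CPM. All KO libraries lay above the WT mean and 6 of 7 lay above every WT library, while KO replicate 6 lay below WT replicate 1. The KO mean was 184 ± 56.2 CPM (SD, n = 7) and the WT mean 70.6 ± 17.9 CPM (SD, n = 5), and the fitted log2 difference was 1.38 ± 0.25 (SE), or 2.60-fold. Fitted within the shallower libraries alone the log2 difference was 1.54 and within the deeper ones 1.11. With the Xist class in the fit it was 1.42, and without the 3 KO libraries of highest neutrophil sums 1.38. A level above every WT library in at least 6 KO libraries was met by 2.50% of all 14666 genes, one above every WT library in all 7 by 0.634%, and one above the WT mean in all 7 by 5.07%.

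Within 250 kb of Gars lay 5 further coding genes of the table, of which 4 had enough counts for the fit. These were Znrf2 at −0.11 ± 0.14 (SE), Nod1 at −0.20 ± 0.20, Ggct at 0.42 ± 0.27 and Inmt at 0.22 ± 0.81. By edgeR's quasi-likelihood test, 0 of the 4 had an unadjusted p under 0.05.

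The sequence in front of Gars is shown because a core of the C/EBP-ATF response element, to which ATF4 binds with a C/EBP partner, was found in it. The 250 bases upstream of the RefSeq start (GRCm38.p6, chr6:55037751-55038000, plus strand) are given 5′ to 3′, with the match in capitals.
Gars: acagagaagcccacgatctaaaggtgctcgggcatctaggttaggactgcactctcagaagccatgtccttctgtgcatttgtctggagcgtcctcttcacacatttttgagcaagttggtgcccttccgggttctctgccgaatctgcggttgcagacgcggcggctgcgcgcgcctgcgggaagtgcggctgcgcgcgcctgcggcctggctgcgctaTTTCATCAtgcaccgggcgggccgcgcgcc

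The motif searched was TGATGNAA (TTNCATCA when it lies on the other strand), on both strands, in windows from 250 bases before to 50 bases after each RefSeq start. No other motif was searched. A window was at hand for 13 of 20 cytosolic and 14 of 16 mitochondrial members. The motif was present in 5 of the 13 cytosolic windows and in 0 of the 14 mitochondrial ones, against 3.97% of 32851 windows of all genes. The cytosolic members with a match were Aars, Gars, Iars, Tars and Yars. A match describes the letters only and shows no binding. The sites of Iars, Tars and Yars are given with 11 bases on each side, 5′ to 3′ on the strand of the gene (GRCm38.p6), and the motif in capitals.
Iars (chr13:49682126-49682155, plus strand): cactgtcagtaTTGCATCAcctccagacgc
Tars (chr15:11399655-11399684, minus strand): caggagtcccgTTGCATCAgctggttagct
Yars (chr4:129189895-129189924, plus strand): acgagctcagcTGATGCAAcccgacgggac

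The first base of the site lay 30 bases before the start in Gars and 15 before it in Tars. In Yars and Iars it lay at base 4 and 8 counted from the start. The 5 genes with a site did not share a direction between the genotypes. Gars, Yars and Iars had positive log2 differences (1.38, 0.38 and 0.35), and Aars and Tars had negative ones (−0.13 and −0.47).

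**Figure D1:**
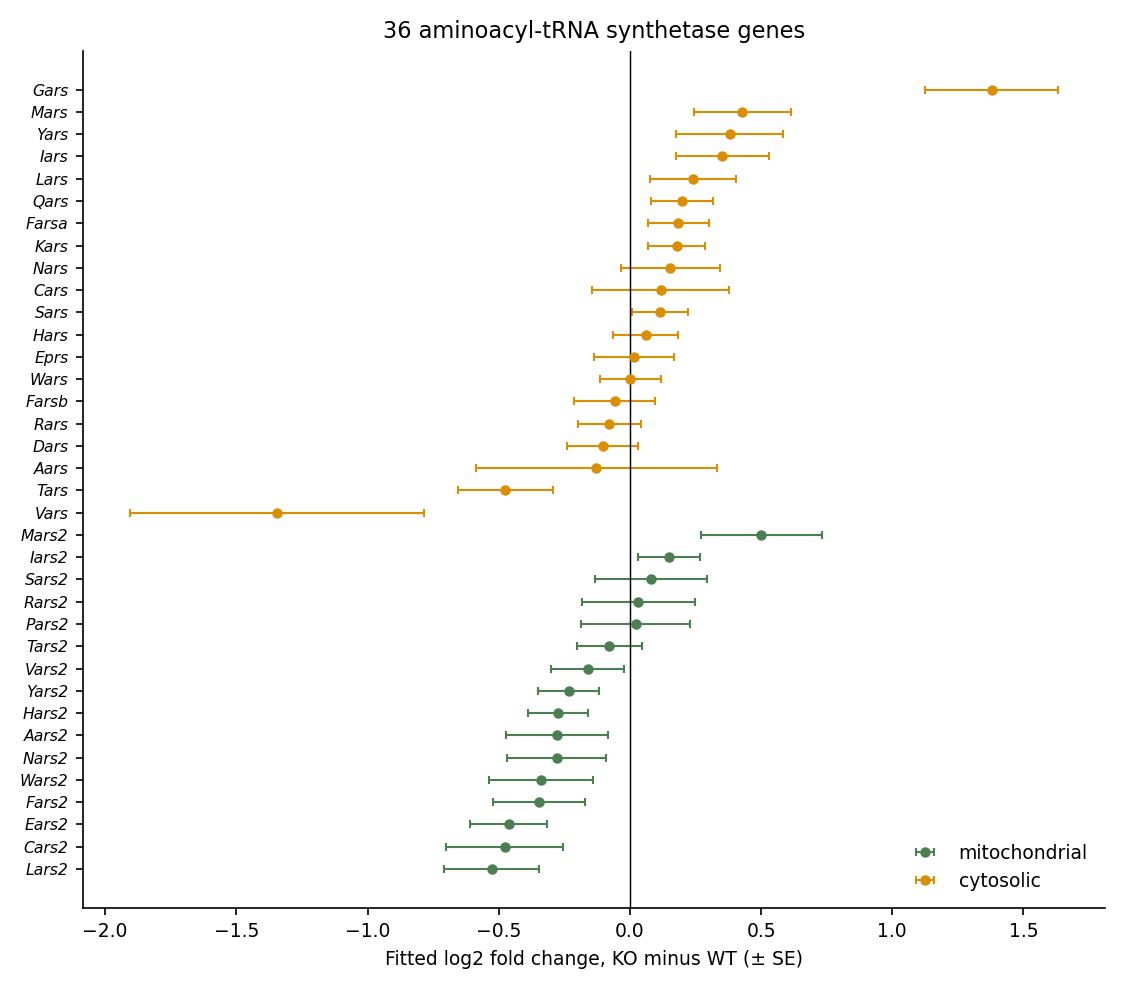
Fitted log2 fold change of KO minus WT with its SE for the 20 cytosolic (orange) and 16 mitochondrial (green) synthetase genes, ordered within each compartment. Gars is at 1.38 on the right, Vars, whose counts are near 0, at −1.35 on the left, and 11 of the 16 mitochondrial genes lie below 0.

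Among the other cytosolic enzymes the differences were small. Of the 20 members, 14 had a positive and 6 a negative fitted log2 difference, with a median of 0.12, against a median of 0.034 and 53.7% positive over all genes. Apart from Gars and Vars, all 18 lay between −0.47 and 0.43. EdgeR's quasi-likelihood test called 0 members of 36, and 0% of 14666 genes, with the adjusted p required to be under 0.05. At an unadjusted p under 0.05 there were 3 members higher in KO (Gars, Mars and Mars2) and 5 lower (Tars, Vars, Ears2, Lars2 and Hars2), against 7.25% higher and 7.44% lower over all genes. DESeq2 called Gars alone at an adjusted p under 0.05 (2.75% of 18082 genes). Limma-voom with sample weights called Gars and 7 mitochondrial members, all 7 lower (14.6% of 14666 genes). The list came from this contrast, so nothing is read from these counts.

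Methionyl-tRNA synthetase, encoded by Mars, charges the initiator as well as the elongator methionine tRNA. Mars was at 76.1, 60.0, 60.3, 54.4 and 57.6 CPM in WT and at 58.3 to 129 CPM in KO, with a KO median of 76.4. In KO replicates 1, 2, 3 and 5 its level was above every WT library, and WT replicate 1 was the highest of WT. The log2 difference was 0.43 ± 0.18 (SE). Mars overlaps Ddit3, a stress response gene on the opposite strand, which was at 0.078 ± 0.36, and without a stated strand setting the reads of the overlap cannot be told apart.

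Isoleucyl-tRNA synthetase, encoded by Iars, differed by 0.35 ± 0.18 (SE). It was at 63.8, 47.5, 41.0, 37.0 and 47.9 CPM in WT and ran from 46.6 to 86.9 CPM with a median of 55.0 in KO. Tyrosyl-tRNA synthetase (Yars) was at 12.5, 8.74, 8.57, 8.35 and 7.60 CPM in WT and at 9.07 to 18.3 in KO, with a median of 10.5. For both genes the groups overlapped, and WT replicate 1 held the highest WT value. The log2 difference of Yars was 0.38 ± 0.20 (SE).

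Threonyl-tRNA synthetase was the cytosolic member with sufficient counts that lay lowest in KO relative to WT. Tars was at 130, 93.6, 155, 128 and 101 CPM in WT and at 55.5 to 109 CPM in KO, with a median of 84.2. All 7 KO libraries lay under the WT mean and 4 lay under every WT library. The log2 difference was −0.47 ± 0.18 (SE), and it was −0.74 within the shallower and −0.061 within the deeper libraries.

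Alanyl-tRNA synthetase varied most among the cytosolic members with sufficient counts. Aars was at 216, 425, 170, 113 and 378 CPM in WT and at 105 to 563 CPM in KO, with a median of 173. The highest level was in KO replicate 1 and the lowest in KO replicate 7, a ratio of 5.34 over the 12 libraries. The group difference was −0.13 ± 0.46 (SE). Fitted separately, it was 0.90 for shallower and −1.52 for deeper libraries. In a test of that contrast over all genes (edgeR's quasi-likelihood test of the interaction), the value for Aars was −2.42 ± 0.70 (SE), with an adjusted p = 0.514. In that test 0 of 14666 genes passed, and 3 of 36 members (Aars, Cars2 and Fars2) had an unadjusted p under 0.05, against 9.55% of all genes.

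Like the other cytosolic members apart from Gars and Vars, the enzymes of the multi-synthetase complex had small differences. Of these 8 (Dars, Eprs, Iars, Kars, Lars, Mars, Qars and Rars), 6 had a positive value, and all 8 lay between −0.10 and 0.43 with a median of 0.19. The lysine enzyme Kars was at 73.7, 72.1, 60.3, 61.3 and 70.8 CPM in WT and at 65.0 to 87.8 in KO, with a median of 76.4 and a log2 difference of 0.18 ± 0.11 (SE). Qars and Lars, for glutamine and leucine, were at 0.20 ± 0.12 and 0.24 ± 0.16, and the bifunctional glutamate and proline enzyme Eprs at 0.016 ± 0.15. The aspartate and arginine enzymes Dars and Rars were at −0.10 ± 0.14 and −0.079 ± 0.12. The 3 scaffold genes of the complex had values of 0.20 ± 0.13 (Aimp1), 0.15 ± 0.16 (Aimp2) and −0.0041 ± 0.13 (Eef1e1), and 0 of 3 had an unadjusted p under 0.05.

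Of the free-standing enzymes, Nars for asparagine was at 154, 103, 90.3, 105 and 104 CPM in WT and at 97.0 to 183 in KO, with a median of 114 and a difference of 0.15 ± 0.19 (SE). The serine, cysteine and histidine enzymes Sars, Cars and Hars were at 0.12 ± 0.11, 0.12 ± 0.26 and 0.060 ± 0.12. Both subunits of the phenylalanine enzyme are made from separate genes, and these were at 0.18 ± 0.12 (Farsa) and −0.058 ± 0.15 (Farsb). Wars, the tryptophan enzyme and an interferon gamma response gene, was at 36.3, 33.9, 28.1, 29.2 and 33.1 CPM in WT and at 26.8 to 38.1 in KO, with a median of 33.6 and a difference of 0.0017 ± 0.12. The groups overlapped throughout for Wars. Among 10 other interferon gamma response genes, 6 had positive values and 0 had an unadjusted p under 0.05 in edgeR's test. KO replicate 2 had both the highest summed level of these genes (1176 CPM, with 236 to 635 CPM in the other libraries) and the highest level of Wars.

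**Figure D2:**
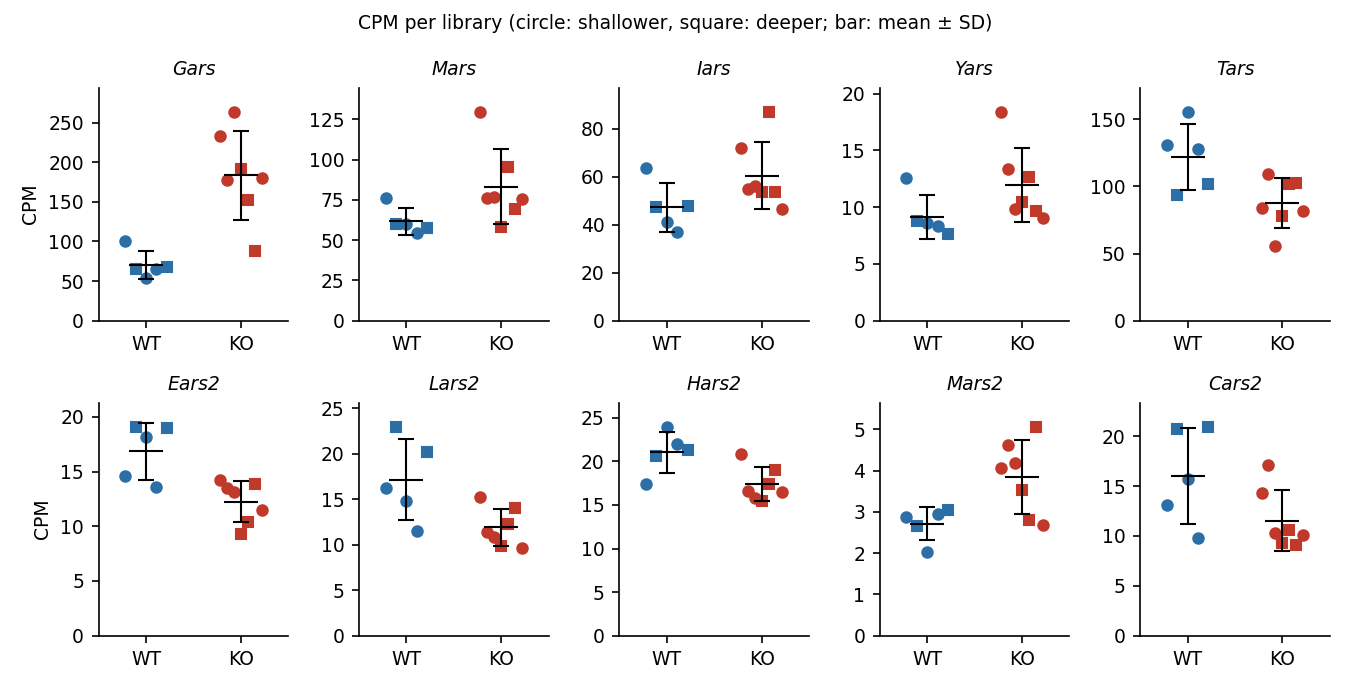
CPM of 10 synthetase genes in each WT (blue, n = 5) and KO (red, n = 7) library, with circles for the shallower and squares for the deeper libraries and bars for the mean ± SD. The groups overlap for all 10 genes, and for Gars 6 of 7 KO libraries lie above all WT libraries.

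Valyl-tRNA synthetase could not be read from this table. Vars (chromosome 17, from 35000987 to 35016322, GRCm38) had 2 to 65 counts per library, or 0.746, 1.30, 2.11, 2.05 and 1.01 CPM in WT and 0.0837 to 1.16 CPM in KO with a median of 0.526. Its log2 difference of −1.35 ± 0.56 (SE) rests on these counts. Within 250 kb of Vars lay 43 coding genes of the table, counting Vars. Of these, 35 had at most 20 counts in every library, and 25 had 0 counts in all 12 libraries. Genes that cells use generally were among them, such as Csnk2b, a casein kinase subunit, and Bag6, a chaperone, both at 0 in all libraries, and Lsm2 of RNA processing, at 0 to 16 counts. Low counts thus covered most of the region, and the row of Vars is not read here as the level of its RNA. The mitochondrial valine gene Vars2 on the same chromosome, from 35655634 to 35667592, lay outside that region and was at 9.35 to 15.9 CPM. Leaving Vars out of the cytosolic members moved their median log2 difference from 0.116 to 0.117.

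**Figure D3:**
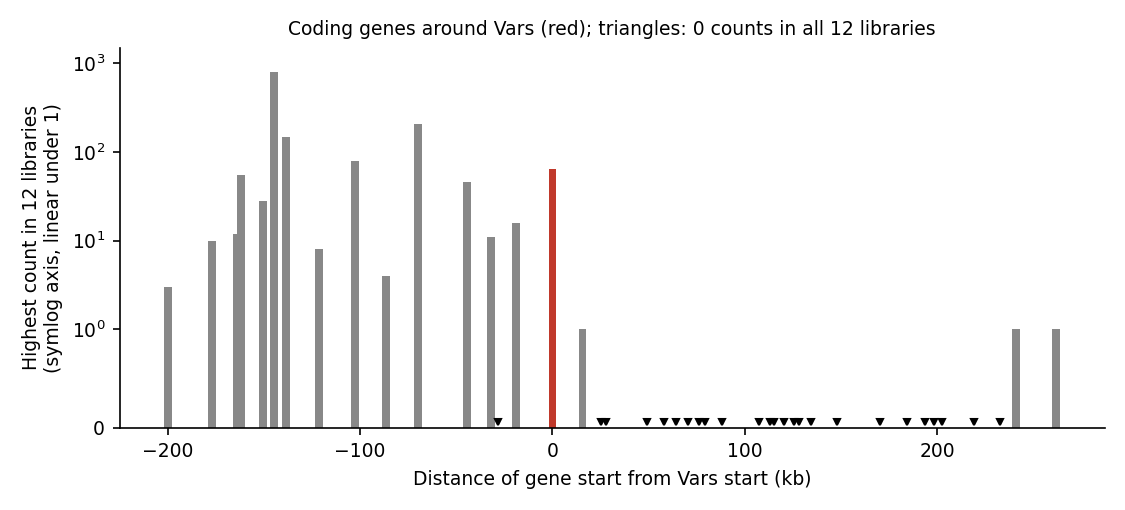
Highest count in any of the 12 libraries for each coding gene within 250 kb of Vars (red), against the distance of its start from that of Vars in kb, on a symlog axis that is linear under 1. Triangles mark 25 genes with 0 counts in all 12 libraries, and Vars itself reaches 65 counts.

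Mitochondrial synthetases had mostly negative values. Of the 16 members, 11 had a negative and 5 a positive log2 difference, with a median of −0.25, against 46.3% negative over all genes. The median was −0.022 with 7 positive in the shallower libraries alone and −0.43 with 2 positive in the deeper ones. The glutamate enzyme Ears2 was at 14.6, 19.0, 18.1, 13.5 and 19.0 CPM in WT and at 9.33 to 14.3 CPM in KO, with a median of 13.1. Each KO library was below the WT mean and 5 were below every WT library. The difference of Ears2 was −0.46 ± 0.15 (SE), and −0.24 and −0.78 within the shallower and deeper libraries.

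Leucyl-tRNA synthetase of mitochondria (Lars2) was at 16.2, 22.9, 14.8, 11.5 and 20.2 CPM in WT and at 9.69 to 15.2 CPM in KO, with a median of 11.4. Every KO library was under the WT mean and 4 of 7 were under every WT library. The difference was −0.53 ± 0.18 (SE), or −0.27 for shallower and −0.84 for deeper libraries. Of 3 genes listed for ribosomal RNA repeats, 1 was in the table. This gene, Rn18s-rs5, was at 8.63 to 17.1 CPM in KO and 10.6 to 23.8 in WT. Its 2 highest values were in WT replicates 5 and 2, where Lars2 was also highest. Ears2, Fars2, Cars2 and Nars2 were highest in the same 2 libraries, while Hars2 and Iars2, among others, were not. The match is therefore not particular to Lars2, and nothing is read from it. Whether repeat reads enter the Lars2 counts was not tested.

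Hars2, the mitochondrial histidine enzyme, was at 17.4, 20.6, 23.9, 21.99 and 21.3 CPM in WT and at 15.5 to 20.9 in KO, with a median of 16.6 and a difference of −0.27 ± 0.11 (SE). Its exons overlap those of Hars, the cytosolic histidine gene on the opposite strand of chromosome 18, so reads there may be counted for either gene. Fars2 for phenylalanine was at 35.1, 49.6, 36.2, 29.4 and 52.4 CPM in WT and at 23.6 to 40.3 in KO, with a median of 31.1 and a difference of −0.35 ± 0.18. For Fars2 that difference was −0.015 within the shallower and −0.76 within the deeper libraries. For both genes all 7 KO libraries lay under the WT mean, and the groups overlapped.

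Cars2, Wars2, Nars2, Aars2 and Yars2, the mitochondrial enzymes for cysteine, tryptophan, asparagine, alanine and tyrosine, were at −0.48 ± 0.22 (SE), −0.34 ± 0.20, −0.28 ± 0.19, −0.28 ± 0.20 and −0.23 ± 0.12. The value of Cars2 was 0.010 within the shallower and −1.12 within the deeper libraries. Vars2 and Tars2, for valine and threonine, were at −0.16 ± 0.14 and −0.078 ± 0.12. Positive values were found for Mars2, Iars2, Sars2, Rars2 and Pars2. Those of Sars2, Rars2 and Pars2, for serine, arginine and proline, were 0.082 ± 0.21, 0.033 ± 0.21 and 0.021 ± 0.21.

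Mars2, for methionine, had the lowest counts of the mitochondrial members. It was at 2.88, 2.65, 2.04, 2.96 and 3.04 CPM in WT and at 2.67 to 5.04 CPM in KO, with a median of 4.06. Its level was above every WT library in 5 KO libraries, with a difference of 0.50 ± 0.23 (SE), and its smallest count was 29. Iars2 was at 84.4, 80.0, 61.8, 67.6 and 76.5 CPM in WT and at 70.8 to 96.2 in KO, with a median of 84.5 and a difference of 0.15 ± 0.12.

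Paired by amino acid, 13 cytosolic genes had a mitochondrial counterpart in the list. The cytosolic gene had the more positive log2 difference in 9 pairs, with a median of 0.21 for the difference within pairs. The exceptions were Mars, Rars, Tars and Vars, the last with the counts described above. The widest gap in favour of the cytosolic gene was that of leucine, with Lars at 0.24 and Lars2 at −0.53.

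Levels can be compared between genes only per length of transcript, and are given here as RPKM, the CPM divided by the merged exon length in kb. In WT the median over genes of the library medians was 20.3 RPKM for cytosolic and 5.18 for mitochondrial members, a ratio of 3.92. In 10 of 13 pairs the cytosolic gene had the higher WT level, and the exceptions were Iars, Vars and Yars. The highest WT medians were 37.5 RPKM for Aars, 35.5 for Nars, 32.3 for Eprs, 32.0 for Tars and 31.5 for Kars, whose ranges over libraries overlapped, and Gars was next at 27.6. In KO Gars was first at 75.9 RPKM, ahead of Nars at 38.9 and Kars at 34.0. Of the mitochondrial genes Fars2 (15.4 RPKM in WT) and Iars2 (11.5) were highest, and Mars2 (0.255) was lowest. Apart from Vars, the lowest cytosolic WT level was that of Yars, at 2.95 RPKM.

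**Figure D4:**
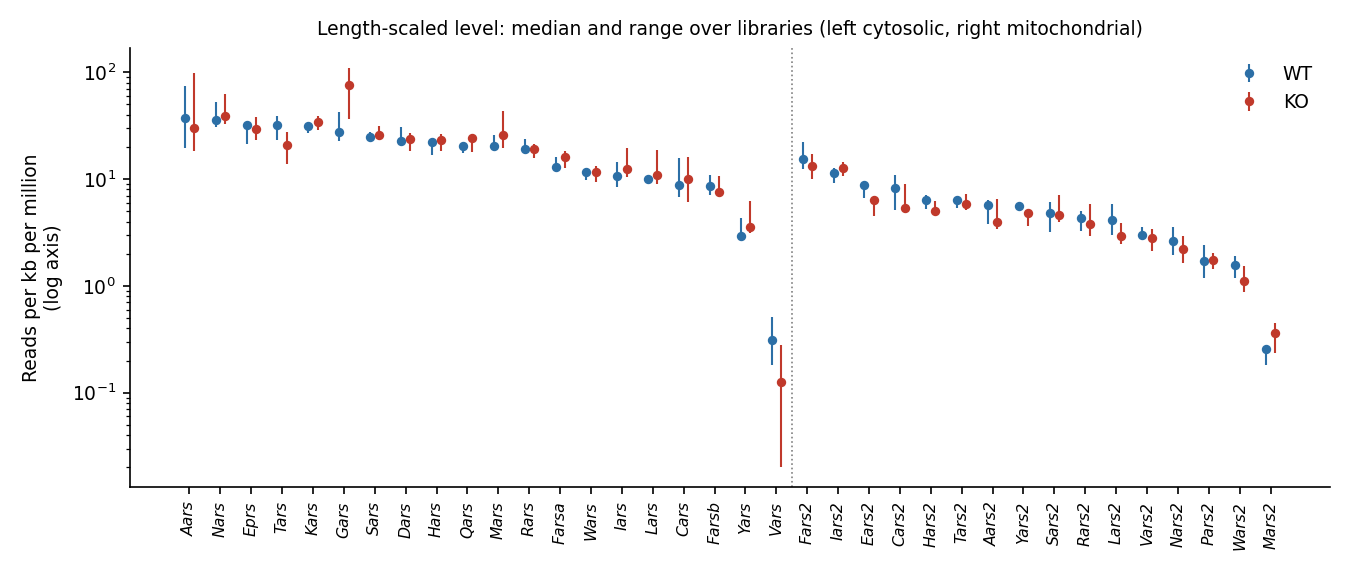
RPKM on a log axis for each gene, as the median (point) and range (line) over 5 WT (blue) and 7 KO (red) libraries, with cytosolic genes left and mitochondrial genes right of the dotted line. Gars moves from sixth in WT (27.6 RPKM) to the highest level in KO (75.9 RPKM), and Vars and Mars2 are lowest.

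A score for each compartment, the mean log2 CPM of its members in a library, shows how the libraries differed. The cytosolic score was 5.52 ± 0.16 (SD) over 7 KO and 5.46 ± 0.13 over 5 WT libraries, a difference of 0.062. With Vars left out, chosen after seeing the data, it was 5.87 ± 0.19 and 5.72 ± 0.16, a difference of 0.14 that is smaller than either SD. It was highest in KO replicates 1 and 2 (5.71 and 5.70) and WT replicate 1 (5.67), and lowest in KO replicate 6 (5.28), or in WT replicate 4 (5.56) without Vars. The mitochondrial score was 3.65 ± 0.16 (SD) for KO and 3.81 ± 0.20 for WT, a difference of −0.16. It was highest in WT replicates 2 and 5, with 4.01 in replicate 2, and lowest in KO replicates 5 and 4 (3.46 and 3.48).

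Cytosolic minus mitochondrial, the score was 1.88 ± 0.20 (SD) for the 7 KO and 1.65 ± 0.24 for the 5 WT libraries. The genotype difference of 0.23 was about the size of the spread between libraries, and the groups overlapped. Without Vars the difference was 0.31, with SDs of 0.21 and 0.26, and the groups still overlapped. With Vars it was 0.10 within the shallower and 0.41 within the deeper libraries, and for the mitochondrial score alone the values were 0.018 and −0.43. The deeper WT libraries were replicates 2 and 5, which held the highest mitochondrial scores. KO replicate 5 had the largest gap between compartments (2.16) and WT replicate 2 the smallest (1.44).

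**Figure D5:**
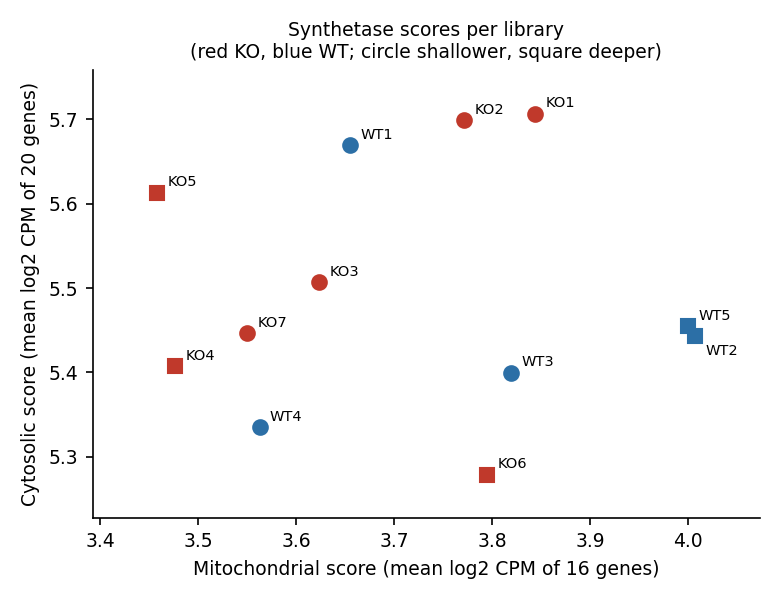
Cytosolic score against mitochondrial score (mean log2 CPM of 20 and of 16 genes) for each library, KO in red and WT in blue, circles shallower and squares deeper. WT2 and WT5 lie farthest right (4.01 for WT2), KO1 and KO2 highest (5.71 and 5.70), and KO6 lowest (5.28).

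Members of a compartment varied together within the genotypes. For each gene the deviation from its genotype mean of log2 CPM was taken in the 12 libraries, which differ in depth, Xist class and cell markers. Pairs of cytosolic members had a median Pearson correlation of 0.35 (190 pairs) and pairs of mitochondrial members one of 0.39 (120 pairs). Pairs across the compartments had a median of 0.00028 (320 pairs), and pairs of all genes tested had one of −0.0011. These are descriptions over the same 12 libraries, without a test. The closest cytosolic pair was Nars with Sars (0.90), and the closest mitochondrial pair was Aars2 with Ears2 (0.84). Gars was closest to Dars (0.71), and Vars had a negative median with the other cytosolic members (−0.46). The median SD over libraries was 0.28 in KO and 0.25 in WT for cytosolic members, 0.26 and 0.26 for mitochondrial ones, and 0.45 and 0.39 for all genes.

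Library depth was a contrast that the choice of genes did not use. In a fit with genotype and depth class, edgeR's quasi-likelihood test called 0 of 36 members between deeper and shallower libraries at an adjusted p under 0.05. Over all 14666 genes it called 6 higher (0.0409%) and 96 lower (0.655%) in the deeper libraries. At an unadjusted p under 0.05, 2 members were lower in the deeper libraries, Cars (−0.60 ± 0.21 SE) and Farsa (−0.24 ± 0.098), and 0 were higher, against 8.05% lower and 6.39% higher over all genes. Limma-voom with sample weights also called 0 members.

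The integrated stress response is the pathway in which ATF4 raises synthetase, amino acid carrier and amino acid synthesis genes, and its other genes had mostly positive values. Of 32 such genes, listed with earlier results of these data known, 21 had a positive value (53.7% of all genes), with a median of 0.44. In edgeR's test 0 passed after adjustment, while 10 of the genes higher in KO and 0 of those lower had an unadjusted p under 0.05 (7.25% and 7.44% of all genes). DESeq2 called 5 (2.75% of all genes in either direction) and limma-voom with sample weights 10 (6.40% higher over all genes), all higher. Atf4 itself, which is controlled largely at translation, was at 0.18 ± 0.17 (SE), and Eif2ak4, the kinase that senses uncharged tRNA, at 0.079 ± 0.18. The serine synthesis gene Psat1 was at 20.5 to 206 CPM in KO (median 85.0) and at 2.11 to 45.2 in WT (median 4.72). The carriers Slc1a5 and Slc7a5 were at 4.25 to 52.5 and 7.84 to 77.2 CPM in KO and at 3.79 to 6.02 and 2.25 to 8.80 in WT. Pck2, the mitochondrial counterpart of Pck1, was at 1.10 ± 0.32.

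WT replicate 1 had the highest cytosolic score of the WT libraries. Its mean log2 CPM of the integrated stress response genes, 4.67, was also the highest of WT (3.29 to 4.45 in the others). Not every one of these genes was high there, and Slc1a5 had its lowest value there (3.79 CPM). Asns, the asparagine synthetase, was at 59.3 CPM there and at 4.06 to 17.3 CPM in the other 4 WT libraries, and Psat1 was at 45.2 against 2.11 to 11.8 CPM. In KO Asns ranged from 6.41 CPM in replicate 2 to 80.6 CPM in replicate 5. KO replicate 2, with the lowest Asns of KO, had one of the 2 highest cytosolic scores.

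The ribosome that the mitochondrial enzymes supply is built from its own set of proteins. Of 20 mitochondrial ribosomal protein genes, 17 were negative with a median of −0.26, against 46.3% negative over all genes. At an unadjusted p under 0.05, 5 were lower (7.44% of all genes) and 0 higher in edgeR's test, with 0 after adjustment. DESeq2 called 0 and limma-voom with sample weights 9, all lower (8.18% of all genes). Their score was highest in WT replicates 2 and 5 (5.19 in each) and then KO replicate 6 (4.98), and lowest in KO replicate 4 (4.42). WT replicates 2 and 5, the deeper WT libraries, were also the highest for the mitochondrial synthetases. Within the shallower libraries the ribosomal protein scores of KO replicates 1, 2, 3 and 7 were 4.86, 4.76, 4.65 and 4.72. Those of WT replicates 1, 3 and 4 were 4.71, 4.76 and 4.75, so the groups overlapped there. Of 16 elongation and initiation factor genes of both compartments, 8 were positive and 8 negative, with a median of −0.0067. EdgeR's test gave an unadjusted p under 0.05 to 1 of the positive and 3 of the negative ones (7.25% and 7.44% of all genes). DESeq2 called 2, both lower (2.75% of all genes in either direction). Limma-voom with sample weights called 1 higher and 4 lower (6.40% and 8.18% of all genes). Among the 3 negative ones in edgeR's test was Mtif2, an initiation factor of mitochondrial translation, with no overlap between the groups. It was at 22.6, 23.0, 24.5, 21.7 and 21.9 CPM in WT and at 13.9 to 19.3 CPM in KO (median 15.5). A second initiation factor, Mtif3, was at 20.8 to 26.1 CPM in WT and 14.0 to 20.5 in KO, again without overlap. All KO libraries lay below all WT libraries in 0.580% of 14666 genes.

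Glutaminyl-tRNA of mitochondria is made by amidation of glutamyl-tRNA, by an amidotransferase whose subunits Qrsl1, Gatb and Gatc encode. Gatb was at 22.6, 44.9, 24.7, 37.1 and 42.7 CPM in WT and at 12.5 to 34.7 CPM in KO (median 14.5), with a difference of −0.83 ± 0.29 (SE) and 5 KO libraries below every WT library. Qrsl1 and Gatc were at 0.18 ± 0.20 and 0.12 ± 0.15, and Mtfmt, which formylates the initiator methionyl-tRNA, at 0.044 ± 0.15, so 3 of these 4 genes had positive values. Ears2, which makes the glutamyl-tRNA, was also below every WT library in 5 KO libraries, and for both genes these were replicates 2, 3, 4, 5 and 7. The same replicates were below every WT library for Gfm2, another gene of mitochondrial translation. KO replicates 1 and 6 had the highest mitochondrial scores of KO (3.84 and 3.795). The share of all genes with 5 KO libraries below every WT library was not counted, so nothing is read from the shared replicates.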

How the data were processed

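The deposited table holds raw read counts per gene, whole numbers that the authors did not normalize, for 12 libraries. Per the submitters' processing notes, reads were aligned with HISAT2 to mm10. For the counting program, strand setting and annotation, nothing is given in the sources used here. Overlapping genes therefore cannot be told apart, and exons of 10 of the 36 members overlap another gene. Libraries were grouped by the genotype label and numbered in accession order. No 2 libraries of a group agreed within sampling noise (smallest chi-square per degree of freedom 54.5).

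Genes passing filterByExpr (minimum count 10, minimum total 15) numbered 14666 and included all 36 members. They were fitted with edgeR 4.0.16 (TMM, robust quasi-likelihood F-test, KO against WT, no covariates, Benjamini-Hochberg at 0.05), which was tested on simulated data. Fold changes are fitted values, and each SE is the absolute log2 value divided by √F. A prior count of 2 entered log2 CPM. Alternatives were DESeq2 1.42.0 and limma 3.58.1, scalings, filters, covariates and subsets of libraries. Coordinates and exon lengths are from GENCODE M21 (GRCm38, the assembly of mm10) and promoter sequences from RefSeq (GRCm38.p6). The promoter sites of Aars are not reported here. Depth (17462102 to 46747125 counts) limits low genes such as Mars2.

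Members and lists were chosen with earlier results of these data known. Library values were given for Gars, for the 5 other cytosolic and 4 mitochondrial members of smallest p, for the members of highest RPKM (3 cytosolic, 2 mitochondrial), and for Wars, Lars2 and Kars. From pathway lists came the 4 genes of smallest p and a few fixed genes. Csnk2b, Bag6, Lsm2 and the neighbours of Gars were named after their values were seen.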

Additional observations from a re-analysis of the deposited data

Results flagged for a closer look

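Each member's CPM, both scores and the difference of the scores were examined in each genotype for a library far from the others, 78 sets of values in all, and 7 were found. Chance flags about 1 in 20 such sets. Of the 7, 5 concerned WT replicate 1, which lay above the other WT libraries in Gars (101 CPM, next 67.4), Mars (76.1, next 60.3), Nars (154, next 105), Farsa (29.5, next 24.0) and Yars (12.5, next 8.74). Those 5 genes share that library and are not separate observations. WT replicate 4 lay below the others in Eprs (105 CPM, next 153), and KO replicate 5 lay above the others in Lars (73.9 CPM, next 46.9).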

How the results depend on the processing

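The direction of the fitted difference was the same under every alternative that fitted the gene for 13 cytosolic and 10 mitochondrial members. There were 24 alternatives, but 23 for Vars, which is among the 13 and failed the filter of at least 1 CPM in 5 libraries. Gars ranged from 1.11 to 1.55. Genes called between genotypes (0 higher, 0 lower in edgeR) numbered 256 higher and 241 lower in DESeq2 and 938 and 1200 in limma-voom with sample weights. There was 1 lower gene with upper quartile scaling, without a filter and with at least 1 CPM in 5 libraries, 1 higher and 2 lower with depth class, and 2 lower with title number range or in the deeper libraries alone. Without the 3 KO libraries of highest neutrophil sums, chosen after seeing the data, there were 1 higher and 5 lower. With single libraries left out the counts ran from 0 to 14 higher and from 0 to 51 lower, the largest without KO replicate 6, where Gars passed. The mitochondrial median of −0.25 became −0.022 in the shallower libraries, and the difference of the medians (0.37) became 0.13. With the Xist class in the fit the cytosolic median was 0.11 and the mitochondrial one −0.21. In that fit Aars went from −0.13 to −0.51, Cars from 0.12 to −0.0036 and Rars2 from 0.033 to −0.22, while Gars was at 1.42. Genes higher in deeper libraries numbered 33 with limma-voom with sample weights (6 in edgeR), and with single libraries left out 1 to 14 were higher and 30 to 68 lower (96 in edgeR). The cause of these changes was not tested. No paired analysis was possible because the labels give the genotypes no shared replicate numbers.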

Other observations

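The genes of ribosome biogenesis, which supply the machinery that uses charged tRNA, had positive values in 11 of 12 cases (53.7% of all genes), with a median log2 difference of 0.16. The nucleolar protein gene Npm1 was at 0.54 ± 0.19 (SE) and Wdr43, which acts in processing of ribosomal RNA, at 0.36 ± 0.14. In edgeR's quasi-likelihood test 0 of the 12 passed an adjusted p under 0.05, and 2 were higher at an unadjusted p under 0.05 (7.25% of all genes). DESeq2 called 0 and limma-voom with sample weights 3 of them, all higher (6.40% of all genes). The cytosolic translation repressor Eif4ebp1 was at 0.46 ± 0.16, while the mitochondrial translation gene Gfm2 was at −0.85 ± 0.24, with 15.3 to 38.0 CPM in KO and 32.6 to 63.5 in WT.

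Genes for tRNA editing and selenocysteine charging (Aarsd1, Dtd1, Sepsecs, Pstk and Tarsl2) had 4 negative values of 5, with a median of −0.18, and 0 of 5 had an unadjusted p under 0.05. Of 7 genes of the eIF2 kinases and their phosphatase, 5 had positive values, with a median of 0.082. In edgeR's quasi-likelihood test 1 of the 7 had an unadjusted p under 0.05, against 7.25% higher and 7.44% lower over all genes. Nothing is read from that count. The gene was the interferon-induced kinase gene Eif2ak2, at −0.40 ± 0.17 (SE). For it 5 KO libraries were below every WT library, a share not counted over all genes.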
